A study of Mus musculus with 6 samples.

Results

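Transcript levels of 33 germline and meiosis genes were compared between mouse embryonic stem cells (ESCs) and epiblast-like cells (EpiLCs). The members are a fixed list of gene symbols, covering RNA regulators of germ cells, the piRNA pathway, the synaptonemal complex, meiotic cohesin, meiotic recombination, meiotic entry and other testis genes, and all 33 were found among the 24736 genes of the expression table. The ESCs were wild-type cells grown in knockout DMEM with 10% serum and 1000 U/ml LIF and collected undifferentiated at 0 h (n = 3 libraries). The EpiLCs were the same wild-type cells after 48 h in N2/B27 basal medium with 10 ng/ml bFGF and 5 uM LGK974, which blocks the secretion of WNT proteins (n = 3 libraries). Both groups came from a single male line, HM1 TetON, which the methods of the study describe as kept on feeder fibroblasts and parted from them before differentiation. Libraries of polyA RNA were sequenced as strand-specific single-end reads of 76 nt and held between 16967741 and 35096210 expected counts each.

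Many germline genes are tissue-restricted genes with CpG-rich promoters that somatic cells keep off. In the mouse epiblast, their promoters are bound by repressors such as E2F6 and the MGA and MAX proteins of a Polycomb-related complex, and they gain DNA methylation from DNMT3A and DNMT3B around implantation. Primordial germ cells later lose this methylation, and the genes then serve transposon defence by PIWI-interacting RNAs (piRNAs), pairing of homologous chromosomes and recombination. ESCs are a model of the epiblast before implantation and EpiLCs of the epiblast shortly after it. DNA methylation itself was not measured in the libraries analysed here.

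The members did not fall as a group. Their working name calls them silenced, which low levels in bulk RNA without methylation data cannot decide. At least 3 counts in every library were found for 29 of 33 members in ESCs and for 30 of 33 in EpiLCs. In all 6 libraries this held for 28 members (84.8%), against 57.5% of all genes. A mean of at least 1 TPM (transcript level scaled for gene length and library size) was reached by 22 members (66.7%) in ESCs and 24 (72.7%) in EpiLCs, against 52.1% and 51.0% of all genes. A mean of at least 10 TPM was reached by 7 members (21.2%) in each group, against 34.2% and 33.8% of all genes. Most members were therefore detected at low levels in both cell states, and 9 of 33 were under 1 TPM in EpiLCs.

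After a filter on low counts, 28 of 33 members were tested among 14468 genes, with edgeR's quasi-likelihood test at an adjusted p of at most 0.05 (the word called is used for this). 7 members were higher in EpiLCs, which is 25.0% of those tested against a background of 22.6% of all genes tested called higher. 10 members were lower, which is 35.7% against a background of 22.8%. In either direction 17 members (60.7%) were called against 45.4%, and 11 were not called. The share called higher was thus near the background and the share called lower was above it. The filter can pass a gene on the group in which it is high, so these shares describe the members and are no test of them. The median log2 fold change (EpiLC over ESC) of the tested members was 0.03, beside -0.00170 for all genes tested, and the median absolute log2 fold change was 0.84 beside 0.38. A log2 fold change above 1 in size, among those called, was seen for 10 members (35.7%) against a background of 20.2%. In TPM, the ESC and EpiLC libraries did not overlap for 20 of 28 members, 10 with EpiLCs higher and 10 with EpiLCs lower, against backgrounds of 33.8%, 25.6% and, in either direction, 59.5%. The members thus moved in both directions about a centre near 0, over a wider range than the median gene. With 1 library left out, this median ran from -0.14 (without ESC replicate 2) to 0.33 (without ESC replicate 3). In bulk RNA, fewer expressing cells and less RNA per cell cannot be told apart. The plot of log2 fold changes shows the 28 members in order.

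**Figure D1:**
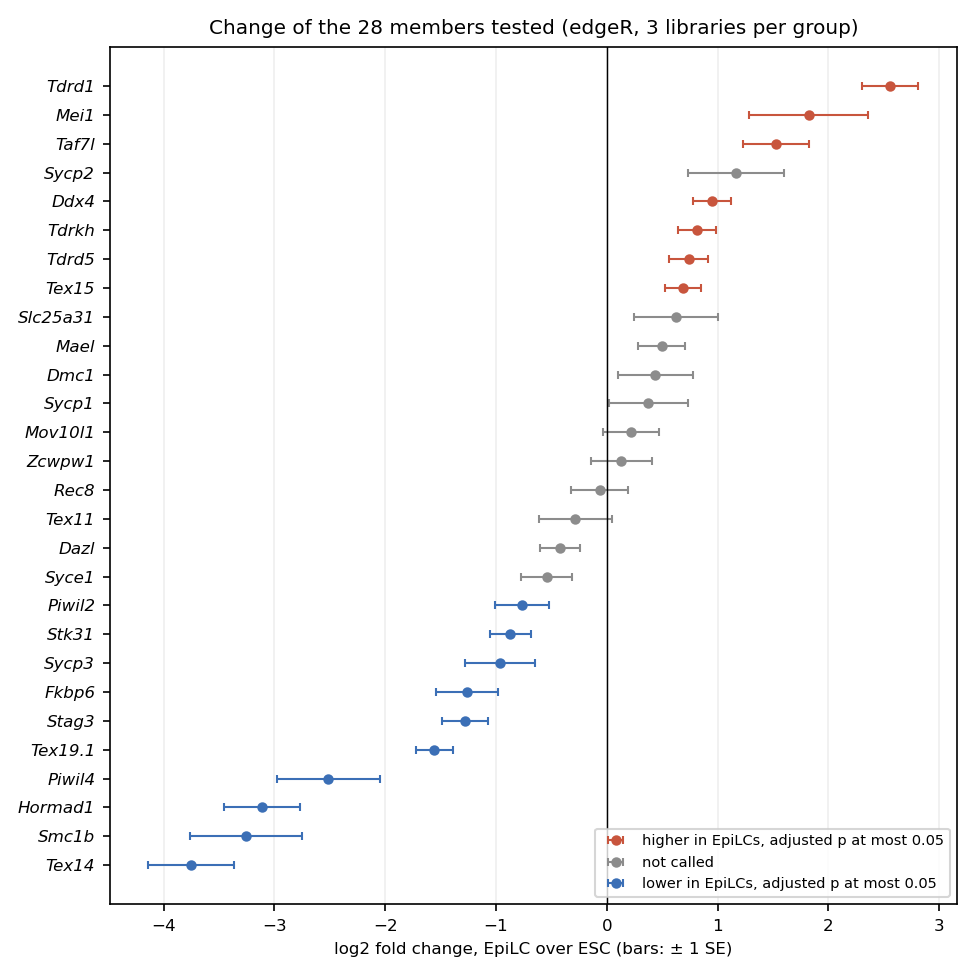
Log2 fold change (EpiLC over ESC, horizontal axis) of the 28 members tested, with bars of ± 1 SE from edgeR with 3 libraries per group. Red points are the 7 members called higher in EpiLCs, blue points the 10 called lower, and grey points the 11 not called. The values run from -3.75 for Tex14 to 2.56 for Tdrd1.

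The promoters of the members were read from RefSeq (GRCm38.p6) because the repressors named above recognise short sequences in them. The base letters searched were the E2F core (GCGGGA or its reverse complement TCCCGC) and the E-box CACGTG, which is its own reverse complement. They were counted on both strands in windows of 250 bases before to 50 bases after a transcript start and adjoining matches of the 2 motifs can share bases. A window was matched for 29 of 33 members, and for 17 of these its start lay within 50 bases of the gene's most upstream RefSeq start. For the other 12 it lay further downstream, by up to 12402 bases for Mei1. The E-box was present in 13 of 29 member windows (44.8%) against 10.2% of the 11157 tested genes with a window. The E2F core was present in 13 (44.8%) against 36.4%, and both motifs together in 7 (24.1%) against 3.98%. The median GC content was 60% beside 61%, and the median ratio of observed to expected CpG 0.733 beside 0.754, so that the member windows had about the CpG content of the other windows and more E-box letters. By direction, at least 1 of the motifs was present in 8 of 9 windows of members that fell, 4 of 6 of those that rose, 6 of 10 of those not called and 1 of 4 of those not tested, against 42.6% of the tested genes. In the first 3 of these classes, the E-box was in 5 of 9, 3 of 6 and 4 of 10, and the E2F core in 6 of 9, 2 of 6 and 5 of 10. The windows further downstream include those of Stag3 (7995 bases) and Fkbp6 (1765), which fell. They also include those of Mei1, Tdrd5 (956) and Ddx4 (323), which rose. The motif counts are matches of letters, not sites shown to be bound.

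The sequences before the start are shown for 2 members that rose (Tdrkh and Taf7l) and 4 that fell (Tex14, Smc1b, Hormad1 and Sycp3) as examples with 0 to 3 matches, chosen among members whose window begins at most 52 bases after the gene's start (52 for Tex14). They do not stand for the other members of their direction, since Ddx4, which rose, had 1 E2F core and 1 E-box, Tdrd5, which rose, had 1 E2F core, and Piwil4, which fell, had neither motif. Each runs 5′ to 3′ on the gene's strand, ends before the most upstream RefSeq start of the gene, and has E2F core and E-box matches in capitals. They lie at chr3:94412994-94413242 (plus strand) for Tdrkh, chrX:134476506-134476740 (minus strand) for Taf7l, chr11:87404815-87405012 (plus strand) for Tex14, chr15:85131958-85132207 (minus strand) for Smc1b, chr3:95559427-95559676 (plus strand) for Hormad1 and chr10:88459337-88459586 (plus strand) for Sycp3.
Tdrkh: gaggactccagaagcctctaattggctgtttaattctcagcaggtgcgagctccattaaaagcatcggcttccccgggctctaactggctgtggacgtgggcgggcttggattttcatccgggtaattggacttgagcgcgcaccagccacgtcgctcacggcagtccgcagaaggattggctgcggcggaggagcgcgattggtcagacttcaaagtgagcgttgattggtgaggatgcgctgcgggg
Taf7l: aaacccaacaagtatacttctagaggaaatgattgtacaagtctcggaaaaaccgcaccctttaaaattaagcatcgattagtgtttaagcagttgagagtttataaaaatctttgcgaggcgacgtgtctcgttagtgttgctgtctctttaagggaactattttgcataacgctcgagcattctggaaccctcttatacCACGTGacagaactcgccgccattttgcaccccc
Tex14: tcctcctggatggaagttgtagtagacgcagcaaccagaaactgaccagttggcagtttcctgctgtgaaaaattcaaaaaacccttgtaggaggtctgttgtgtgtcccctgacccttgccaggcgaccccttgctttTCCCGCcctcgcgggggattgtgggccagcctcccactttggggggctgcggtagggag
Smc1b: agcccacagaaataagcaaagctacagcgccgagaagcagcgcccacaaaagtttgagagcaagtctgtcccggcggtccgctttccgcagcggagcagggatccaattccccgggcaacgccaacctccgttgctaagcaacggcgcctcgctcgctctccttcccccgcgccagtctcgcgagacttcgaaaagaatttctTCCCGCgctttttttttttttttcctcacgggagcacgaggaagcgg
Hormad1: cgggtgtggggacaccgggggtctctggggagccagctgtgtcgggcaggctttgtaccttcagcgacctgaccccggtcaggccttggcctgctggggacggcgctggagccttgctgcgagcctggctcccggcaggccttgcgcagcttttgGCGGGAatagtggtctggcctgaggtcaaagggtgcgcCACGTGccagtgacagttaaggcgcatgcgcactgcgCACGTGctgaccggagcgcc
Sycp3: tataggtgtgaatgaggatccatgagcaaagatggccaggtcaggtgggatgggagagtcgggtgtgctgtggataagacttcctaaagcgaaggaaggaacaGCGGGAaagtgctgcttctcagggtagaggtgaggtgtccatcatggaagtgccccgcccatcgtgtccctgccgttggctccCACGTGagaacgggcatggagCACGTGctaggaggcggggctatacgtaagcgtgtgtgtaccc
Tdrkh had no match and Taf7l had 1 E-box. Tex14 and Smc1b, the members with the largest falls, each had 1 E2F core and no E-box. Hormad1 and Sycp3, which encode proteins of the meiotic chromosome axis, each had 1 E2F core and 2 E-boxes. The shares over all windows are drawn in the plot of motif matches.

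**Figure D2:**
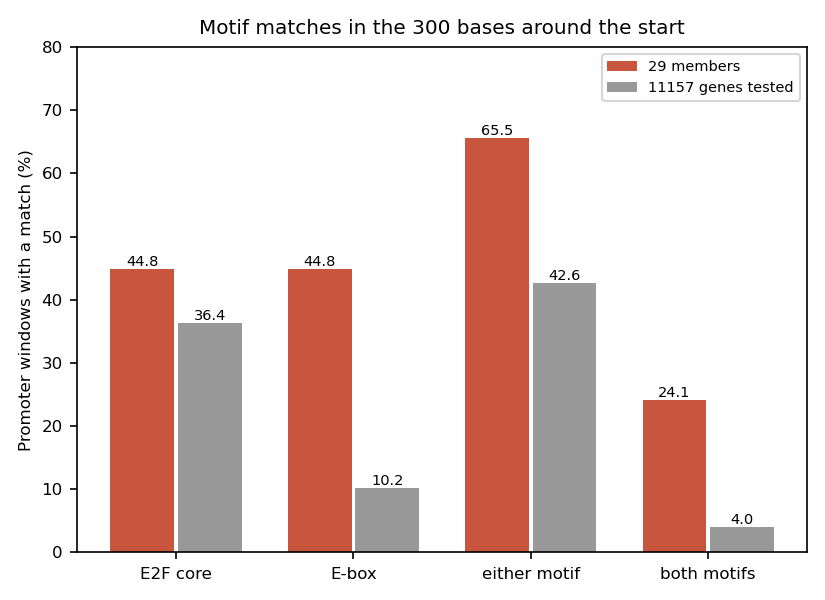
Percentage of promoter windows (vertical axis, from 250 bases before to 50 after the start) with a match to the E2F core, the E-box, either motif or both, in 29 members (red) and 11157 tested genes (grey). The gap is largest for the E-box, 44.8% beside 10.2%.

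Among the RNA regulators of germ cells, 1 of 3 rose and 1 of 3 fell, beside 22.6% and 22.8% of all genes tested, and counts this small say little about the group. Ddx4, the DEAD-box RNA helicase also known as Vasa, stood at 13.12, 10.54 and 15.59 TPM in the ESC libraries (13.1 ± 2.53, mean ± SD, n = 3 as for every mean below) and at 25.24, 30.76 and 22.79 TPM in the EpiLC libraries (26.3 ± 4.08). It rose 1.93-fold (log2 fold change 0.95, SE 0.17, edgeR adjusted p = 0.00491), and each EpiLC library was above each ESC library. Stk31, which encodes a Tudor-domain protein of germ cells, moved the other way, from 5.40, 4.95 and 6.24 TPM to 2.59, 3.23 and 3.60 TPM. It was 1.83-fold lower (log2 fold change -0.87, SE 0.19, edgeR adjusted p = 0.00962), again without overlap of the groups. Dazl, an RNA-binding protein needed for germ cell development, had 3.24, 3.22 and 3.84 TPM in ESCs and 2.49, 2.97 and 2.51 TPM in EpiLCs. Its EpiLC libraries were all below its ESC libraries, but it was not called (log2 fold change -0.43, SE 0.18, edgeR adjusted p = 0.0932).

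The piRNA pathway, which silences transposons in germ cells with small RNAs loaded on PIWI proteins, had 10 of its 12 members tested. 4 rose, 4 fell and 2 were not called (80% called, against 45.4% of all genes tested), and 9 of the 10 had groups that did not overlap in TPM (59.5% of all genes). Tdrd1, a Tudor-domain scaffold of piRNA granules, was at 1.90, 0.94 and 1.20 TPM in ESCs and at 8.01, 9.55 and 7.18 TPM in EpiLCs. This was the largest rise among the tested members (5.89-fold, log2 fold change 2.56, SE 0.26, edgeR adjusted p = 4.76e-04), and its lowest EpiLC library was well above its highest ESC library. Tdrkh, a mitochondrial Tudor protein that helps trim piRNA precursors, went from 15.74, 9.91 and 12.78 TPM to 21.64, 25.15 and 26.61 TPM (log2 fold change 0.82, SE 0.17, edgeR adjusted p = 0.00862). Tdrd5, another Tudor-domain protein of germ granules, went from 7.27, 4.78 and 5.44 TPM to 9.19, 11.29 and 9.56 TPM (log2 fold change 0.74, SE 0.18, edgeR adjusted p = 0.0140, or 0.0567 without EpiLC replicate 2). Tex15, which is needed for piRNA-directed DNA methylation and meiotic repair, went from 3.01, 2.43 and 3.10 TPM to 4.02, 4.82 and 5.47 TPM (log2 fold change 0.69, SE 0.16, edgeR adjusted p = 0.0131). In these 3 genes too each EpiLC library was above each ESC library, with rises of 1.76-fold, 1.67-fold and 1.61-fold.

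The 4 members of the pathway that fell were Tex19.1, Fkbp6, Piwil4 and Piwil2. Tex19.1, which restrains retrotransposons in germ cells and pluripotent cells, was the second most abundant member in ESCs, at 51.72, 75.22 and 50.57 TPM in ESCs (59.2 ± 13.9) and 19.68, 23.03 and 19.77 TPM in EpiLCs (20.8 ± 1.91). It was 2.94-fold lower (log2 fold change -1.56, SE 0.17, edgeR adjusted p = 6.18e-04) and moved from the 88.2 to the 75.2 percentile of all genes by mean TPM. Fkbp6, a co-chaperone of piRNA loading, went from 4.60, 3.62 and 3.12 TPM to 1.35, 2.18 and 1.39 TPM (log2 fold change -1.26, SE 0.28, edgeR adjusted p = 0.00999, or 0.0526 without EpiLC replicate 1). All EpiLC libraries of both genes were below all ESC libraries. Piwil4 (MIWI2), the nuclear PIWI protein, was low throughout, with 16, 12 and 44 counts in ESCs and 8, 6 and 4 in EpiLCs (0.807 ± 0.384 and 0.15 ± 0.0400 TPM). It was 5.71-fold lower (log2 fold change -2.51, SE 0.47, edgeR adjusted p = 0.00498). Piwil2 (MILI), the PIWI protein that starts piRNA amplification, went from 4.23, 4.74 and 6.40 TPM to 2.38, 3.16 and 3.86 TPM (log2 fold change -0.77, SE 0.24, edgeR adjusted p = 0.0375). This call was lost in 3 of the 6 fits that left out 1 library (without ESC replicate 3, EpiLC replicate 1 or EpiLC replicate 2, edgeR adjusted p up to 0.121). Mael, a germ granule protein of transposon control, had EpiLC libraries (9.31 to 11.61 TPM) above its ESC libraries (5.53 to 8.58 TPM) without being called (edgeR adjusted p = 0.0960), and Mov10l1, the helicase that feeds piRNA precursors, overlapped (2.61 to 4.16 and 3.05 to 4.73 TPM). Asz1 and Tdrd9 did not pass the filter.

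In the synaptonemal complex and chromosome axis, the protein scaffold that pairs homologous chromosomes in meiosis, 0 of 6 rose and 2 of 6 fell (33.3% called, against 45.4% of all genes tested). Sycp3, a component of the lateral elements, was the most abundant member and reached the 94.8 percentile of all genes in ESCs. Its ESC libraries held 142.57, 70.89 and 185.21 TPM (133 ± 57.8) and its EpiLC libraries 68.43, 73.12 and 71.22 TPM (70.9 ± 2.36). ESC replicate 2 thus lay within the EpiLC range and the other 2 ESC libraries far above it. The call of a 1.95-fold fall (log2 fold change -0.96, SE 0.31, edgeR adjusted p = 0.0415) was close to the threshold. It was lost in 5 of the 6 fits that left out 1 library (edgeR adjusted p up to 0.119), and without ESC replicate 2 the adjusted p was 5.46e-04. Hormad1, which marks unpaired chromosome axes, fell further, from 8.24, 5.68 and 8.0 TPM to 1.05, 0.55 and 1.01 TPM. It was 8.66-fold lower (log2 fold change -3.11, SE 0.34, edgeR adjusted p = 6.52e-04), with no overlap.

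The other 4 genes of the complex were not called. Sycp2, the partner of SYCP3 in the lateral elements, had 0.60, 0.18 and 0.67 TPM in ESCs and 1.13, 1.3 and 1.04 TPM in EpiLCs (log2 fold change 1.17, SE 0.43, edgeR adjusted p = 0.0625), so that its libraries did not overlap and its direction was opposite to that of Sycp3. It was called higher under 5 of the 13 alternatives, among them DESeq2 (adjusted p = 0.0351). Syce1, of the central element, had 7.95, 7.11 and 11.24 TPM and 5.61, 7.14 and 6.06 TPM (edgeR adjusted p = 0.0900). Sycp1, the transverse filament protein, and Tex11, an X-linked crossover protein, stayed between 0.62 and 2.80 TPM in all libraries with overlapping groups. Part of the Sycp1 reads were divided by RSEM between genes, since its expected counts in EpiLC replicates 2 and 3 were not whole numbers.

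Meiotic cohesin holds sister chromatids with subunits of its own in place of mitotic ones. Of its 3 members 2 fell, beside 22.8% of all genes tested. Smc1b, the meiotic SMC1 subunit, went from 3.59, 1.12 and 3.55 TPM to 0.22, 0.28 and 0.39 TPM, or from 151, 36 and 194 counts to 15, 18 and 23. It was 9.57-fold lower (log2 fold change -3.26, SE 0.51, edgeR adjusted p = 0.00262). Stag3, the meiotic STAG subunit, went from 16.01, 13.63 and 23.69 TPM to 7.26, 7.89 and 7.76 TPM (2.42-fold lower, log2 fold change -1.28, SE 0.21, edgeR adjusted p = 0.00318). For both genes each EpiLC library was below each ESC library. Rec8, the kleisin that closes the meiotic ring, had 7.22 ± 2.10 TPM in ESCs and 7.20 ± 1.46 TPM in EpiLCs with overlapping libraries (log2 fold change -0.07, SE 0.25, edgeR adjusted p = 0.849). The subunits of 1 complex thus differed in what was measured, from a 9.57-fold fall to a mean that moved by less than its SD.

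Of the 3 recombination genes tested 1 rose, beside 22.6% of all genes tested. Mei1, which is needed to form meiotic double-strand breaks, was near the detection limit in ESCs with 7, 1 and 10 counts and had 36, 42 and 18 counts in EpiLCs (0.133 ± 0.0814 and 0.603 ± 0.214 TPM). It rose 3.53-fold (log2 fold change 1.82, SE 0.54, edgeR adjusted p = 0.0291), a call that was lost in 3 of the 6 fits that left out 1 library (without ESC replicate 1, EpiLC replicate 1 or EpiLC replicate 2, edgeR adjusted p up to 0.0977). Dmc1, the meiotic strand-exchange recombinase, had 4.10, 1.84 and 5.13 TPM in ESCs and 5.11, 5.04 and 5.26 TPM in EpiLCs, so that its EpiLC libraries were alike and its ESC libraries were not. It was not called (edgeR adjusted p = 0.324), nor was Zcwpw1, a reader of PRDM9-marked chromatin, at 13.8 ± 5.07 and 15.7 ± 2.36 TPM (edgeR adjusted p = 0.727). Spo11, the enzyme that cuts DNA to start recombination, had between 1 and 9 counts per library and was not tested.

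The other testis genes held the largest fall. Tex14, which stabilises the intercellular bridges that join dividing germ cells, was at 13.26, 8.60 and 22.18 TPM in ESCs (14.7 ± 6.90) and at 1.10, 0.92 and 1.37 TPM in EpiLCs (1.13 ± 0.227). It was 13.5-fold lower (log2 fold change -3.75, SE 0.39, edgeR adjusted p = 5.21e-04), and the lowest ESC library was several times above the highest EpiLC library. Taf7l, the X-linked testis paralogue of a general transcription factor, rose from 0.66, 0.60 and 1.01 TPM to 1.98, 2.73 and 2.22 TPM (2.87-fold, log2 fold change 1.52, SE 0.30, edgeR adjusted p = 0.00633). Slc25a31, the germ cell ADP/ATP carrier, had 0.42 to 1.25 TPM in ESCs and 1.31 to 1.55 TPM in EpiLCs, which did not overlap, and was not called (edgeR adjusted p = 0.209).

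**Figure D3:**
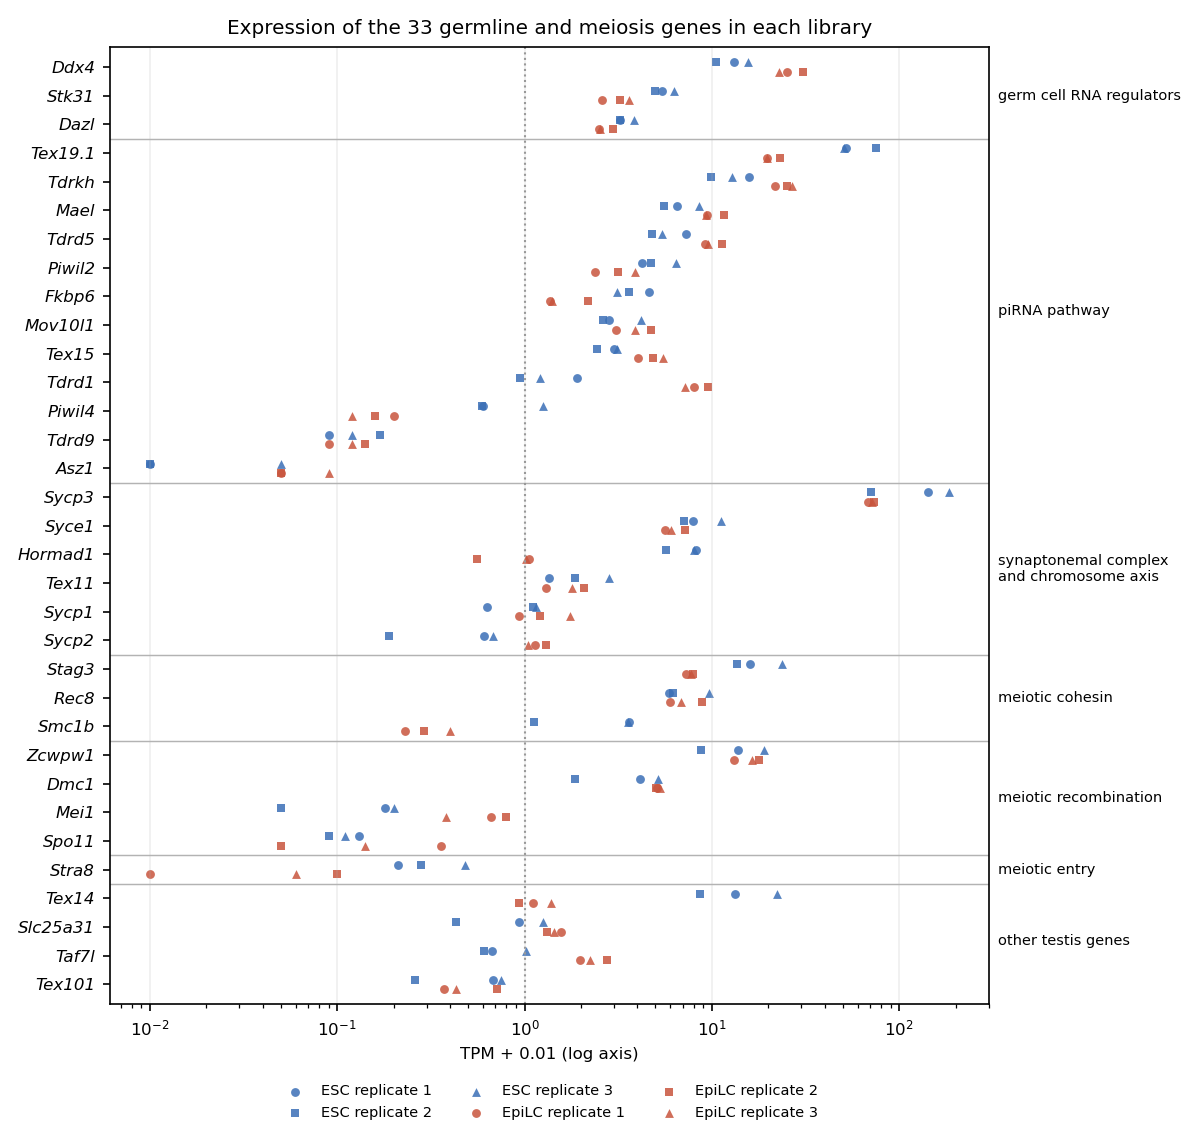
Expression of each of the 33 members (rows, grouped by role) in each library, as TPM + 0.01 on a log axis, with ESCs in blue and EpiLCs in red and a marker shape for each replicate. The dotted line marks 1 TPM. Tex14, Smc1b and Hormad1 lie to the left in EpiLCs, Tdrd1 lies to the right, and Sycp3 has 1 ESC library within the EpiLC cluster.

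5 members did not pass the filter. Asz1, a scaffold of germ granules, had 1 count over the ESC libraries and 4 over the EpiLC libraries, and its 0 counts in ESC replicates 1 and 2 allow up to 3 counts, or 0.136 and 0.177 CPM (counts scaled for library size). Tdrd9, a helicase of the piRNA pathway, had 17 and 24 counts. Spo11 had 5 and 13 counts, and Tex101, a surface protein of male germ cells, had 19 and 23. Stra8, which licenses entry into meiosis in response to retinoic acid, had 3, 3 and 9 counts in ESCs and 0, 2 and 1 in EpiLCs, where the 0 allows up to 0.0855 CPM. The groups of Stra8 did not overlap in TPM, but at this depth none of the 5 gave a reliable level. Such limits cover counting error only.

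Levels of the members also differed among the ESC libraries, and largely in a shared order. In log2 CPM, 19 of 28 members (67.9%) had their highest ESC value in replicate 3 and their lowest in replicate 2, an order held by 24.9% of all genes tested. The share was 4 of 7 among members called higher, 7 of 10 among those called lower and 8 of 11 among those not called. Another 3 members, all called higher (Tdrd1, Tdrkh and Tdrd5), were lowest in replicate 2 and highest in replicate 1. ESC replicate 2 was the lowest ESC library for 22 of 28 members (78.6%) against 38.6% of all genes. The median difference between ESC replicates 3 and 2 was 0.66 on the log2 scale for members and 0.01 for all genes. Sycp2, Mei1, Smc1b, Slc25a31, Dmc1, Sycp3 and Tex14 were among the 10 members (35.7%, against 16.8% of all genes) whose ESC libraries spanned more than 1 on the log2 scale, and 0 of 28 members spanned as much in EpiLCs (5.90% of all genes). The median SD was 0.39 in ESCs and 0.21 in EpiLCs for members, beside 0.20 and 0.11 for all genes. The median member thus varied more than the median gene in both groups, and more in ESCs than in EpiLCs, with no matching for expression level. In EpiLCs, 11 of 28 members (39.3%) were highest in replicate 2 and lowest in replicate 1, against 11.5% of all genes. Another 7 (25.0%) were highest in replicate 3 and lowest in replicate 1, against 14.4%. A shared order was thus not confined to the ESC libraries.

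The sum over the 33 members was 340.85, 257.81 and 418.32 TPM in ESCs and 225.45, 264.54 and 241.65 TPM in EpiLCs, so that ESC replicate 2 lay within the EpiLC range. Between 27.5% and 44.3% of each sum was Sycp3. Without Sycp3 the sums were 198.28, 186.92 and 233.11 TPM and 157.02, 191.42 and 170.43 TPM, which overlap between the groups. The libraries also differed in fibroblast markers. The summed level of 12 such genes was 306.56, 1473.86 and 107.79 TPM in ESCs and between 91.36 and 100.08 TPM in EpiLCs, with Lum or Fap at 0 counts in each library but ESC replicate 2 and 4 of the 10 tested lower in EpiLCs. Among the ESC libraries, the fibroblast sum thus peaked in replicate 2 and was smallest in replicate 3, the reverse of the order of most members there. Its part in that order was not tested. Without ESC replicate 2, all 17 called members were still called, and the counts were 8 higher and 11 lower.

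**Figure D4:**
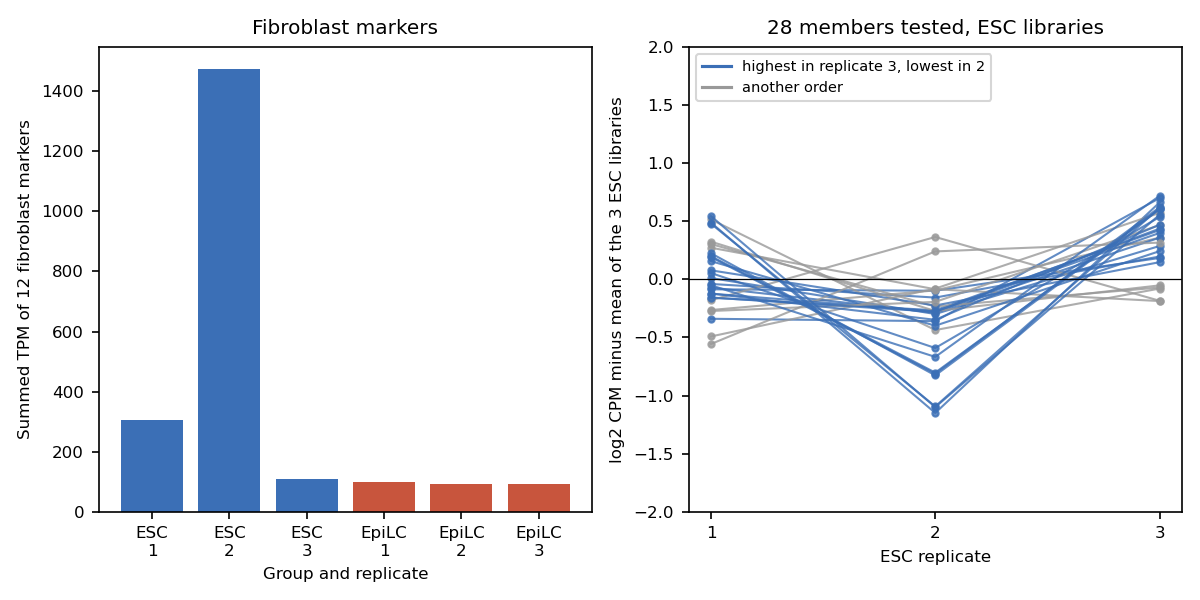
Left, summed TPM of 12 fibroblast markers in each library (bars from 0), which reached 1473.86 in ESC replicate 2. Right, log2 CPM of each of the 28 tested members minus its mean over the 3 ESC libraries, with 1 line per member joining the 3 libraries. Blue lines are the 19 members that were highest in replicate 3 and lowest in replicate 2.

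The identity of the groups was checked with marker genes. Of 6 ESC markers (Pou5f1, Nanog, Esrrb, Zfp42, Klf4 and Tbx3), 5 were lower in EpiLCs and Pou5f1, which both states express, was not called. All 5 EpiLC markers (Fgf5, Pou3f1, Otx2, Dnmt3b and Sox3) were higher, and their summed level was 292.92 to 399.03 TPM in ESCs and 2054.98 to 2125.29 TPM in EpiLCs. Of 9 genes listed as markers of 2-cell-like cells, a rare state in ESC cultures, 5 were tested and all 5 were lower in EpiLCs. Among these 5 was Eif1a (log2 fold change -0.41). Eif1a, which other cells also express, held most of their sum, and the other 8 summed to 26.96, 15.81 and 8.57 TPM in the ESC libraries and 1.22, 1.35 and 1.48 TPM in the EpiLC libraries, with up to 4 of 9 markers at 0 counts in a single EpiLC library. Markers of primitive endoderm summed to 34.24 to 67.88 TPM in ESCs and 9.15 to 10.42 TPM in EpiLCs, with 4 of 6 lower. The part of these cells in the falls of the members was not tested.

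Known regulators of germline genes changed as well. Of a list of 32 symbols, 31 were found and tested, and in EpiLCs 6 rose (19.4%, against 22.6% of all genes tested) and 14 fell (45.2%, against 22.8%). The DNA methyltransferases did not move together. Dnmt3b rose from 264 ± 43.2 to 1594 ± 62.7 TPM (5.83-fold, log2 fold change 2.54, SE 0.13, edgeR adjusted p = 5.89e-05), and Dnmt3a from 24.8 ± 4.82 to 58.6 ± 6.81 TPM (log2 fold change 1.19, SE 0.16, edgeR adjusted p = 0.00149). Dnmt3l, a cofactor without catalytic activity, fell from 245 ± 64.7 to 52.8 ± 8.36 TPM (log2 fold change -2.26, SE 0.22, edgeR adjusted p = 4.45e-04), and the maintenance enzyme Dnmt1 was not called (162 ± 20.4 and 147 ± 6.26 TPM, edgeR adjusted p = 0.170). The 2 de novo enzymes thus rose while their cofactor fell. The oxidising enzyme Tet2 fell from 15.73, 16.79 and 28.72 TPM to 1.22, 1.19 and 1.07 TPM (log2 fold change -4.19, SE 0.27, edgeR adjusted p = 1.13e-04).

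Genes of the E2F6, MGA and PCGF6 repressor complex named here changed by less than 1 on the log2 scale and in both directions. E2f6 rose from 37.2 ± 5.89 to 58.1 ± 4.74 TPM (log2 fold change 0.60, SE 0.12, edgeR adjusted p = 0.00845). Mga fell from 59.8 ± 11.5 to 37.6 ± 4.58 TPM (log2 fold change -0.72, SE 0.15, edgeR adjusted p = 0.00837), and L3mbtl2 and Max fell by 0.45 and 0.27 on the log2 scale (edgeR adjusted p = 0.00428 and 0.0104). Pcgf6 was not called (log2 fold change 0.03, SE 0.06, edgeR adjusted p = 0.672), and all libraries held between 71.46 and 81.18 TPM of it. The other regulators named by the size of their change are known from primordial germ cells. They were also expressed in these ESCs, where they fell beside 5 of the 6 ESC markers. Whether these falls belong together was not tested. Prdm14 went from 9.55, 7.30 and 12.22 TPM to 0.05, 0.05 and 0.19 TPM (log2 fold change -6.71, SE 0.48, edgeR adjusted p = 1.56e-04), Prdm1 had a log2 fold change of -4.07 (SE 0.30, edgeR adjusted p = 1.62e-04), and Tfap2c one of -3.96 (SE 0.27, edgeR adjusted p = 1.40e-04). Dppa3, also called Stella, went from 46.15, 40.31 and 128.6 TPM to 7.43, 9.91 and 25.81 TPM (log2 fold change -2.38, SE 0.63, edgeR adjusted p = 0.0204). The plot of regulators sets these changes side by side.

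**Figure D5:**
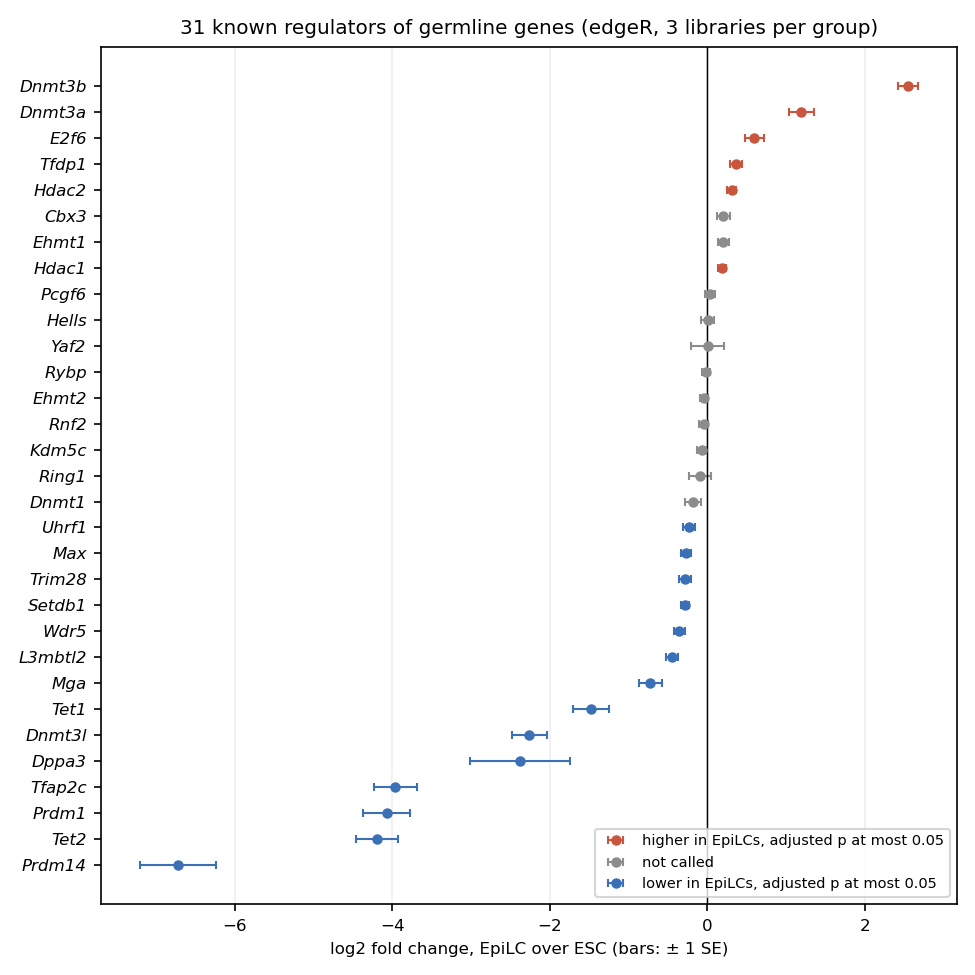
Log2 fold change (EpiLC over ESC, horizontal axis) of 31 known regulators of germline genes, with bars of ± 1 SE from edgeR with 3 libraries per group. Red points are the 6 called higher in EpiLCs, blue points the 14 called lower and grey points the 11 not called. Dnmt3b is at 2.54 and Prdm14 at -6.71.

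A second list of germ cell and meiosis genes also held changes in both directions. Of 64 symbols, 57 were found and 43 tested, with 7 rising and 12 falling in EpiLCs (16.3% and 27.9%, against 22.6% and 22.8% of all genes), with a median log2 fold change of -0.11. With a filter at a mean of at least 1 CPM, 3 rose and 9 fell. Tdrd6, a component of germ cell granules, rose from 0.0533 ± 0.0115 to 0.347 ± 0.123 TPM (log2 fold change 2.75, SE 0.42, edgeR adjusted p = 0.00237). It was near the detection limit in ESCs, at 0.06, 0.04 and 0.06 TPM, so the size of its rise is uncertain. Rad21l, a meiotic kleisin, rose from 0.343 ± 0.127 to 1.81 ± 0.719 TPM (log2 fold change 2.31, SE 0.46, edgeR adjusted p = 0.00657). Nanos3, an RNA-binding protein that protects primordial germ cells, fell from 3.28 ± 1.17 to 0.333 ± 0.0987 TPM (log2 fold change -3.29, SE 0.45, edgeR adjusted p = 0.00147). Kit, the receptor that early germ cells need, fell from 41.3 ± 8.79 to 7.49 ± 1.24 TPM (log2 fold change -2.52, SE 0.20, edgeR adjusted p = 2.06e-04). Rpl39l and Rpl10l, testis copies of ribosomal protein genes, had log2 fold changes of -2.99 and -2.50 (edgeR adjusted p = 5.41e-04 and 1.24e-04), which are uncertain because reads can be divided between such copies and their parent genes.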

How the data were processed

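RNA-seq of 3 ESC and 3 EpiLC libraries was analysed, grouped by the sample labels. The authors trimmed reads with cutadapt 1.16, mapped them with STAR 2.5.2a and counted them by strand per mm10 RefSeq gene with RSEM 1.3.0 (DESeq2 1.16.1 is also in their notes), and deposited 2 units. The expected counts deposited by the authors are not normalized and divide reads that map to several genes. The TPM values deposited by the authors are scaled for length and library. The culture methods give another duration for EpiLCs than the labels, whose 48 h is used here.

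Expected counts were rounded to whole numbers, scaled by TMM (factors from 0.979 to 1.02), filtered with filterByExpr and tested with edgeR 4.0.16 (quasi-likelihood, R 4.3.3) over 14468 genes, with Benjamini-Hochberg adjustment and a threshold of 0.05. Standard errors were derived from the fitted coefficient and its F value, and log2 CPM used a prior count of 2. Scripts were tested on simulated data. Libraries held 16967741 to 35096210 counts, so that 3 counts equal 0.0855 to 0.177 CPM. The labels call the replicates biological, and none differed from another by as little as sampling noise. The members, gene lists and motifs were chosen with earlier results of these data known. All 33 members are described. Of the other lists, the text names up to 6 called genes with the largest absolute log2 fold change, with the DNA methyltransferases and E2f6, Mga, Max, Pcgf6 and L3mbtl2. Alternatives were upper-quartile scaling, DESeq2 1.42.0, no filter, a mean of at least 1 CPM, a replicate block, limma 3.58.1 on log2(TPM + 1) and log2(TPM + 0.1), other detection thresholds and leaving out each library. Sequences and positions came from RefSeq on GRCm38.p6. No same-strand exon overlap with another gene was found for the members, and 5 share exonic bases with an antisense gene (Piwil4, Tdrkh, Tdrd5, Sycp3 and Zcwpw1), which the stranded counting separates.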

Additional observations from a re-analysis of the deposited data

How the results depend on the processing

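Of the 17 members called, 11 were called under all 13 alternatives (Ddx4, Stk31, Tdrd1, Tdrkh, Tex15, Tex19.1, Hormad1, Stag3, Smc1b, Taf7l and Tex14), and 0 of the 17 reversed. The other 6 were Piwil2, Piwil4, Tdrd5, Fkbp6, Sycp3 and Mei1, of which Piwil4 and Mei1 were not tested at a mean of at least 1 CPM, Fkbp6 was lost without EpiLC replicate 1 and Tdrd5 without EpiLC replicate 2, and Piwil2 and Sycp3 were also lost with limma. Of the members not called, Sycp2 was called higher with DESeq2, with limma at both pseudocounts and without ESC replicate 2 or 3 (adjusted p of 0.0241 to 0.0436), Mael higher with limma on log2(TPM + 0.1) and without ESC replicate 3 (adjusted p = 0.0474 and 0.0226), and Syce1 lower without ESC replicate 2 (adjusted p = 0.0409). Leaving out 1 library gave 4244 to 7181 called genes, 2144 to 3572 higher and 2100 to 3609 lower. The lowest counts came without EpiLC replicate 1 (4244, 2144 and 2100). Over the members it gave 5 to 9 higher, 7 to 11 lower and a median log2 fold change of -0.14 to 0.33, with 0.33 without ESC replicate 3. The median was -0.07 with DESeq2 and -0.05 without a filter. Among members not called, the log2 fold change took both signs when 1 library was left out for Tex11 (-0.52 to 0.081, positive without ESC replicate 3), Rec8 (-0.22 to 0.22, positive without ESC replicate 3 and, at 0.06, without EpiLC replicate 1) and Zcwpw1 (-0.11 to 0.44, negative without ESC replicate 2). For Rec8 it was 0.0108 with limma on log2(TPM + 1) and 0.0139 on log2(TPM + 0.1). Without a filter Stra8 was lower (edgeR adjusted p = 0.0430). Of the other germline genes, 3 were higher at a mean of at least 1 CPM, against 7 in the main fit. A mean of at least 5 TPM was reached by 14 members in ESCs and 12 in EpiLCs. The split of all genes was 3267 higher and 3304 lower, against 3457 and 3074 with upper-quartile scaling and 3843 and 2848 with limma on log2(TPM + 1). The cause of these shifts was not tested.

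A fit with a replicate block called 6085 genes, among them 6 members higher and 9 lower. In it Sycp3 (edgeR adjusted p = 0.0521) and Mei1 (edgeR adjusted p = 0.0666) were no longer called. Same-numbered libraries correlated in their deviations from the group means at 0.00668, 0.186 and 0.170. ESC replicates 2 and 3 correlated best with the EpiLC library of the same number, and ESC replicate 1 with EpiLC replicate 3 (0.0836). Whether the numbers pair the libraries cannot be told from these values, and the main fit has no block. The members with few counts (Asz1, Spo11, Stra8, Tdrd9, Tex101, Piwil4 and Mei1) are limited by depth.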
